A study of Mus musculus with 9 samples.

Results

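The mitochondrial respiratory chain and ATP synthase were followed at the transcript level in mouse dendritic cells. Members were all probe sets, in either deposited table, with a single gene symbol that starts with Nduf, Uqcr, Sdh (a to d), Cox4 to Cox8 or Atp5. This gave 74 of the 8387 genes with a symbol of their own, read by 118 probe sets: 100 of 12422 non-control probe sets in the larger table, which holds 6 arrays, and 95 of 12588 in the smaller, which holds 3, with 77 in both. A further 7 and 6 probe sets carried several symbols and were left out. The rule used names only and no measured value.

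RNA came from dendritic cells, antigen-presenting cells that activate T cells, at day 10. There were 3 groups: wild-type B6 mice, mice labelled CIITA-/- (CIITA switches on MHC class II transcription), and mice labelled IAb-/- (IAb is a class II molecule of this strain). Each group had 3 Affymetrix arrays, titled experiments 1, 2 and 3. Experiment 1 sits on another array design and in a table of its own, so tests used the 2 arrays per group of experiments 2 and 3. The labels give no treatment, age or sex, and do not tell how many mice or cultures each group had. The p-values therefore rest on array-to-array spread, part or all of which can be technical. The CIITA-/- array taken as experiment 2 has no number in its title and received the only one left.

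The respiratory chain passes electrons from NADH (complex I) and succinate (complex II) through complex III to oxygen at complex IV. The proton gradient that builds up on the way drives ATP synthase, often counted as complex V. All member genes lie in the nucleus, and the mitochondrial genome encodes further subunits of every complex except II. Dendritic cells are known to rely on this machinery in the resting state and to shift towards glycolysis when strongly activated.

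Respiratory chain genes are textbook targets of nuclear respiratory factor 1 (NRF-1), of ETS factors such as GABP, and of YY1, so the 250 bases before the start of each member gene were read from RefSeq (GRCm38.p6). Promoters were matched for 60 of the 74 genes. The NRF-1 motif, searched as its palindromic core of 10 bases with 1 free base, on either strand, was found in 9 of the 60 (15%), against 4.23% of 27025 genes with a promoter. The ETS motif CCGGAAGT was found in 2 (3.33% against 3.23%) and the YY1 motif AAGATGGC in 1 (1.67% against 1.83%). A match is a description of letters and not a site, no promoter of a member gene held more than 1 of the 3 motifs, and no match says only that the letters are not in this window. The 9 genes with the NRF-1 motif are Atp5c1, Atp5g2, Atp5k, Cox6a1, Ndufa5, Ndufa8, Ndufaf4, Sdha and Sdhd. Uqcr11 and Uqcrh hold the ETS motif, and Atp5j the YY1 motif. Of the promoters printed here, 5′ to 3′ with motifs in capitals, those of Cox6a1 (chr5:115348959-115349208, minus strand) and Sdha (chr13:74350241-74350490, minus strand) hold the NRF-1 motif more than once. Uqcr11 (chr10:80406822-80407071, minus strand) has the largest difference between the 2 mutant groups among members well above background with the same direction in every experiment. Cox7a2 (chr9:79759854-79760103, minus strand) and Cox7a1 (chr7:30183921-30184170, plus strand) are the widespread and the muscle isoform of one subunit, and neither window holds a motif.
Cox6a1: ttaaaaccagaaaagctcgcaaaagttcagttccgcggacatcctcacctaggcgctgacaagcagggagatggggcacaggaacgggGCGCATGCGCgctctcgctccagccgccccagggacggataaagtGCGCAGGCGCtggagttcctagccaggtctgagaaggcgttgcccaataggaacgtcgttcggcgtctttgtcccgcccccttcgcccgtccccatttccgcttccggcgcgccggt
Sdha: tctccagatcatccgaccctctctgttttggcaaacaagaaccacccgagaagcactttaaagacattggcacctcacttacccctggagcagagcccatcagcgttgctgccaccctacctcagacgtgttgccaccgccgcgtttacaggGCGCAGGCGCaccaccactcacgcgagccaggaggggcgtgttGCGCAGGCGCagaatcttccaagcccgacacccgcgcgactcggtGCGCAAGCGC
Uqcr11: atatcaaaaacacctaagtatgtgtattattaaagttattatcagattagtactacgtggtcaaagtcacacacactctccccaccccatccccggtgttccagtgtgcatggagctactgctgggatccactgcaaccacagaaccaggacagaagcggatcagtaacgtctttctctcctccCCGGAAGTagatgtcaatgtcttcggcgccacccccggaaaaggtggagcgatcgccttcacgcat
Cox7a2: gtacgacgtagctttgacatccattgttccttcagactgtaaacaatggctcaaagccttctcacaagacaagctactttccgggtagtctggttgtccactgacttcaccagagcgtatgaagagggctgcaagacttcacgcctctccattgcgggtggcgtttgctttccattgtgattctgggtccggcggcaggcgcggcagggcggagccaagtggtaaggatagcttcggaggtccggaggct
Cox7a1: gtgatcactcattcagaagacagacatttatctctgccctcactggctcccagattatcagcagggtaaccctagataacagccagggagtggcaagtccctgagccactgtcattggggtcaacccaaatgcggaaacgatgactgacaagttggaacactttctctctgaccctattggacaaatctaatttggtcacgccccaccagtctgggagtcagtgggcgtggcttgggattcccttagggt

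Levels are deposited intensities in arbitrary units, background-subtracted, so values can fall below 0. A noise limit was set so that 95% of negative values are smaller in size, which gave 1701 for experiments 2 and 3 and 2203 for experiment 1. A probe set's level depends on its probes, so levels are not compared between genes. The 6 arrays share a 2% trimmed mean of 2502.2 to 2502.6. The Cre spike-in controls differed more, with a mean of 60407 on the IAb-/- array of experiment 2, 34615 on that of experiment 3, and 41952 to 47430 on the other arrays of that table. Of the dendritic cell markers, all 9 genes had a probe set over the noise limit on all 6 arrays. Among markers of other cells this held for 3 of 9 macrophage genes (Cd68, Csf1r and Cd14), 1 of 4 B cell genes, 2 of 8 striated muscle genes, 0 of 8 neutrophil genes, 0 of 6 T cell genes and 0 of 2 erythroid genes. The summed T cell markers lay below 0 on every one of the 6 arrays. In experiment 1 the macrophage marker Mrc1 was also over the limit on each array (8051 in B6, 4770 in CIITA-/- and 2565 in IAb-/-). Adgre1 was over it there in B6 (3798) and IAb-/- (2330) but not in CIITA-/- (1937).

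Most respiratory chain probe sets were read above the noise limit in all groups. In experiments 2 and 3, 61 of 100 probe sets lay over the noise limit on all 6 arrays (61%, against 29.7% of all probe sets), 5 on some arrays and 34 on none. By gene, 56 of the 73 genes there had at least 1 such probe set. On the 3 arrays of experiment 1, 55 of 95 probe sets did. Every probe set of complexes II (4) and III (7) lay over the limit on all 9 arrays. In experiments 2 and 3, 26 of 38 of complex I, 14 of 22 of ATP synthase and 7 of 22 of complex IV lay over it on all 6 arrays. In experiment 1, 24 of 36, 12 of 20 and 6 of 19 did so on all 3.

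The measured levels were steady. Over the 61 bright probe sets the highest of the 6 arrays was a median 1.25 times the lowest (the same ratio was 1.31 over the 3692 bright probe sets of the whole table), and at most 1.95 times. The 2 arrays of one group differed by a median ratio of 1.05 in B6, 1.09 in CIITA-/- and 1.1 in IAb-/-. The median coefficient of variation over the 6 arrays was 8.37% for members and 10.3% for all bright probe sets. Members had a median level of 11123 and all bright probe sets one of 5593, and brighter probe sets tend to vary less by ratio, so no test of this difference was made.

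In complex I, which takes electrons from NADH, the 4 core genes measured were Ndufv1, Ndufv2, Ndufs1 and Ndufs3. Ndufv1, which binds NADH, in experiments 2 and 3 read 19127 and 18480 in B6, 19537 and 19388 on CIITA-/- arrays, and 18413 and 20303 on IAb-/- arrays. IAb-/- overlapped with each of the other groups, and both CIITA-/- values lay above both B6 values (log2 0.05). In experiment 1 it read 22463 in B6, 19802 in CIITA-/- and 20836 in IAb-/-, with B6 the highest.
Ndufs3, a core subunit of the arm that reaches into the matrix, read 10773 and 10422 in B6, 10744 and 10561 in CIITA-/-, and 10260 and 10782 in IAb-/-, so all groups overlapped. Ndufs1, the largest iron-sulfur subunit, had group means of 4525 ± 60 in B6, 4545 ± 402 in CIITA-/- and 4521 ± 166 in IAb-/- (SD, n = 2 each). Ndufv2, another iron-sulfur subunit, had means of 21651 ± 200, 21963 ± 1321 and 21321 ± 1132 in the same order (SD, n = 2) by its bright probe set. Its other probe set lay near the noise limit, at 1452 to 1866.

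Among accessory subunits, which surround the core, the B6 values of Ndufb10 were 10393 and 10627. They were above both CIITA-/- values (9976 and 9556), which were above both IAb-/- values (9111 and 8307), so no groups overlapped. In experiment 1 the order was different, with CIITA-/- at 13658, B6 at 11716 and IAb-/- at 10439. Ndufb8 went from 13201 and 12322 in B6 to 14913 and 14224 in CIITA-/- and 14334 and 12959 in IAb-/-, and from 16390 to 19389 and 17533 in experiment 1. CIITA-/- was therefore above B6 in each experiment, and IAb-/- between them. Several other accessory genes stayed under the noise limit with every probe set on all 9 arrays: Ndufa1, Ndufa12, Ndufc2 and Ndufs4.

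In complex II, the entry point for electrons from succinate, all 4 subunits were measured. Sdha, the flavoprotein that oxidises succinate, read 2354 and 2424 in B6, 2553 and 2113 in CIITA-/- and 1902 and 2306 in IAb-/-. Both IAb-/- values lay under both B6 values, and CIITA-/- overlapped with each. Sdhb, the iron-sulfur subunit, read 10646 and 10316 in B6, 11075 and 10699 in CIITA-/- and 11794 and 11091 in IAb-/-, so no groups overlapped and B6 was lowest. In experiment 1 B6 was instead the highest of the groups, at 13192 against 12483 in CIITA-/- and 12232 in IAb-/-. The membrane anchors Sdhc and Sdhd differed between CIITA-/- and B6 by 0 and -0.05 in log2 units, and between IAb-/- and B6 by 0.04 and -0.02.

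In complex III, which hands electrons to cytochrome c, Uqcrq held the largest difference between CIITA-/- and B6 of the members over the noise limit on the 4 arrays compared. This small accessory subunit read 30500 and 27837 in B6, 37278 and 36514 in CIITA-/- and 37508 and 31856 in IAb-/-. Both mutant groups lay above both B6 arrays. In experiment 1 CIITA-/- was again above B6, at 39350 against 36306, but IAb-/- was below, at 33697. Uqcr11 read 3789 and 3852 in B6, 4362 and 3862 in CIITA-/-, and 3392 and 2909 in IAb-/-. The IAb-/- arrays were the lowest, in experiment 1 too, where the values were 3832, 6141 and 3136. Uqcrh, the hinge protein, was named after its values were seen. It read 27368 and 27939 in B6, 23428 and 23206 in CIITA-/- and 23459 and 22206 in IAb-/-, so both mutant groups lay below B6. The order turned in experiment 1, with 29529 in B6, 33296 in CIITA-/- and 32008 in IAb-/-. The core protein Uqcrc1 had means of 15158 ± 639, 16321 ± 579 and 15972 ± 167 (SD, n = 2) in B6, CIITA-/- and IAb-/-. For Uqcrc2, the other core protein, every array of experiments 2 and 3 lay between 6781 and 8703.

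**Figure D1:**
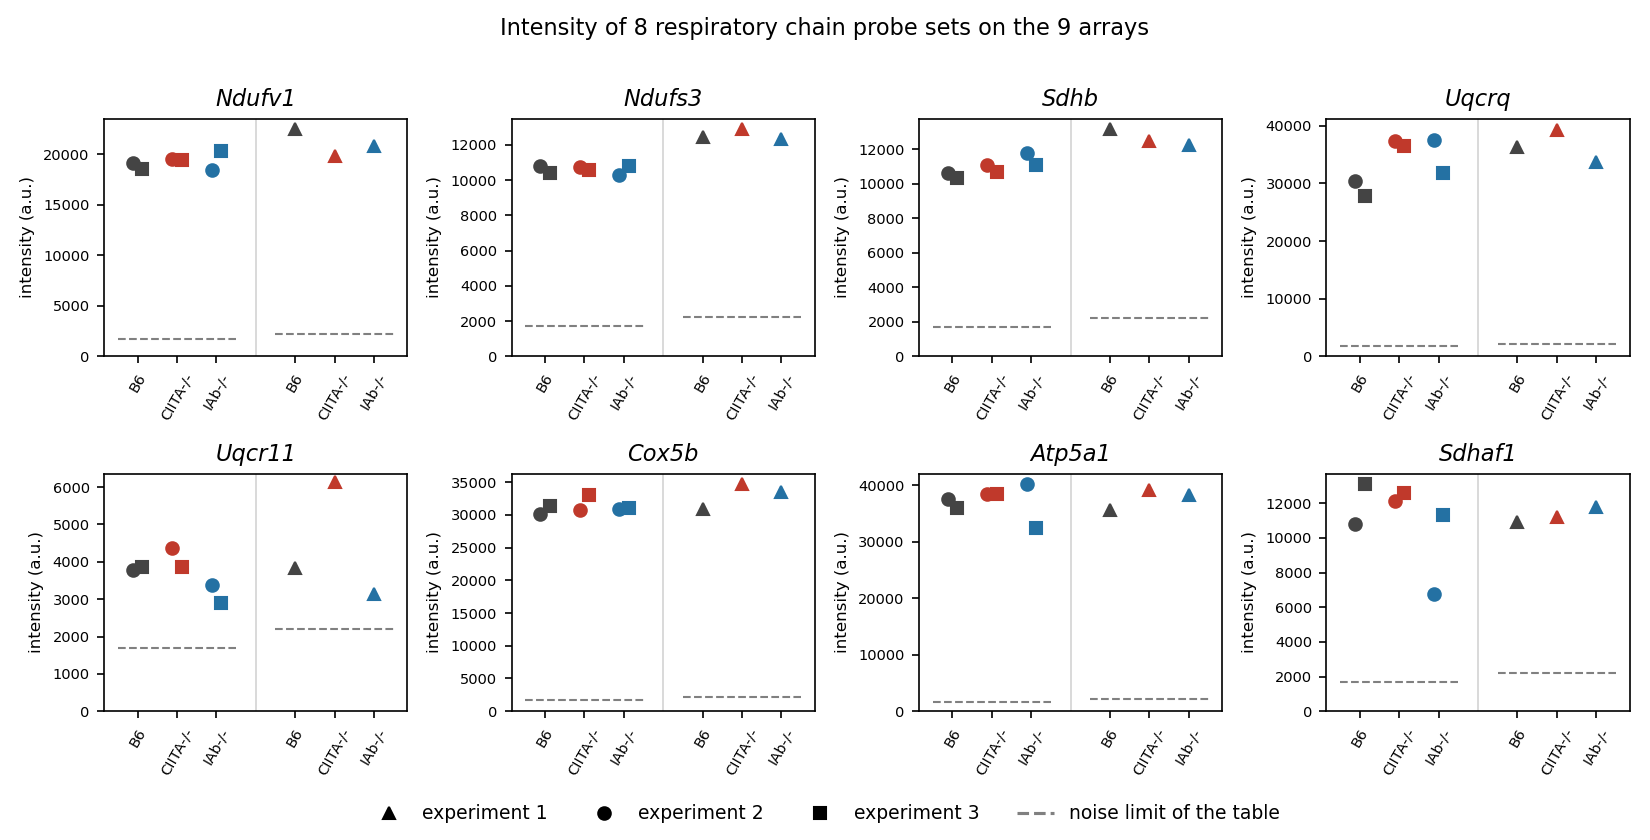
Intensity (arbitrary units, axis from 0) of 8 probe sets on each array, by group. Circles and squares are experiments 2 and 3 (left of each panel), triangles experiment 1 on its own array design (right), and dashed lines the noise limits of 1701 and 2203. Uqcrq was higher in CIITA-/- than in B6 in each experiment, and Uqcr11 lowest in IAb-/-, while the Ndufs3 groups overlapped in experiments 2 and 3.

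Complex IV, cytochrome c oxidase, has subunits that exist as isoforms, a form found in most tissues and another restricted to heart and skeletal muscle or to testis. Cox6a1, the widespread form of subunit 6A, read 37936 to 46049 on the 6 arrays, while the muscle form Cox6a2 read 277 to 1655, under the noise limit on all of them. In experiment 1 Cox6a2 was over the limit on 1 array, CIITA-/-, at 2657. Cox7a2, the widespread form of subunit 7A, read 12797 to 16114, while muscle Cox7a1 read -1776 to 47 and stayed under the limit on all 9 arrays. The muscle isoform Cox8b had 2 probe sets there, 1 at 113 to 286 and 1 at 1069 to 1858, over the limit on 1 array (CIITA-/-, experiment 3). The testis isoforms gave mixed readings: Cox6b2 read 1826 to 3565 with 1 probe set and under the limit with the other 2, and Cox8c 1190 to 3636 with 1, over the limit on 4 of 6 arrays, and under it with the other. The bright Cox6b2 probe set has _f_ in its name, which by the array maker's convention marks probes that can match several related sequences. That holds for 21 of the 100 members, of which 16 were over the limit on all 6 arrays.

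Some widespread complex IV genes were not read well either. Cox8a, the widespread counterpart of Cox8b, lay at 142 to 328, both Cox5a probe sets at 1004 or below and Cox6b1 at 661 to 981. Whether these readings reflect the probes or the transcripts was not tested. Cox5b, by contrast, was bright, with means of 30692 ± 847 in B6, 31924 ± 1580 in CIITA-/- and 31033 ± 86 in IAb-/- (SD, n = 2). Cox4i1 read 4200 to 7252 with its brighter probe set, but its B6 arrays alone stood at 7252 and 4354, nearly the whole of that range. This probe set has _f_ in its name too. The other Cox4i1 probe set stayed under the limit on all 9 arrays, at 837 to 1489. Between CIITA-/- and B6 it differed by log2 0.43 in experiments 2 and 3 and by -0.54 in experiment 1.

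**Figure D2:**
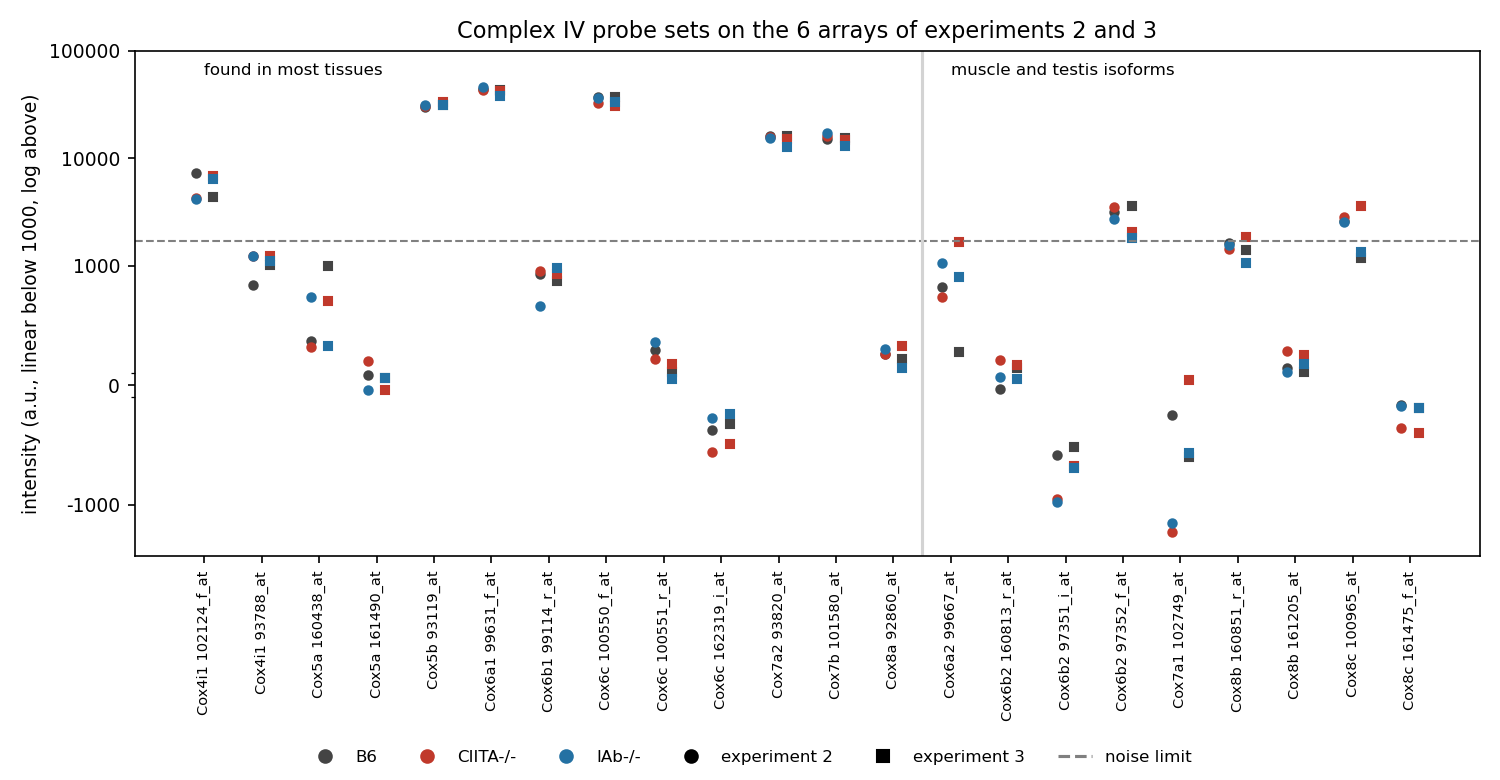
Intensity (arbitrary units, linear below 1000 and logarithmic above) of each complex IV probe set on the 6 arrays of experiments 2 and 3, with group by colour and the noise limit of 1701 dashed. Widespread subunits stand left and the muscle and testis isoforms right; Cox6a2, Cox7a1 and Cox8a stay under the limit.

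In ATP synthase, the alpha subunit Atp5a1, which forms the catalytic head together with the beta subunit (Atp5b, not analysed here), read 37670 and 35916 in B6, 38500 and 38495 in CIITA-/- and 40175 and 32465 in IAb-/-. The CIITA-/- arrays lay above B6, and the IAb-/- arrays stood on either side of both. In experiment 1 B6 was lowest, at 35622 against 39245 and 38225. Of the rotor, the gamma subunit Atp5c1 had bright means of 24964 ± 217, 23268 ± 293 and 22066 ± 960 with 1 probe set and 27250 ± 866, 28079 ± 1100 and 26186 ± 837 with the other, in the order B6, CIITA-/-, IAb-/- (SD, n = 2). These 2 probe sets went opposite ways between CIITA-/- and B6 (log2 -0.10 and 0.04).
Atp5e, the epsilon subunit, read 19959 and 18518 in B6, 21179 and 20648 in CIITA-/- and 19968 and 17160 in IAb-/-. The delta subunit Atp5d had 5 probe sets in the larger table, 3 over the limit and 2 under it on all 6 arrays. The 3 over it have _f_ in their names, and the 2 under it do not. In experiment 1 all 4 of its probe sets were under the limit. Among the 3, the differences between IAb-/- and B6 ran from -0.28 to 0.19 in log2 units. Of the membrane ring of subunit c, Atp5g2 read 7204 to 9116 with 1 probe set, while all probe sets of Atp5g1 were under the limit. Atp5l, subunit g, read 49740 and 48549 in B6, 56021 and 52791 in CIITA-/- and 57002 and 44212 in IAb-/- with its brighter probe set. Its other probe set went the opposite way between CIITA-/- and B6 (log2 -0.22 against 0.15), so the probe sets disagree. The peripheral stalk subunit Atp5o read 14153 and 11274 in B6, 12312 and 16631 in CIITA-/- and 13990 and 14311 in IAb-/-, so the arrays of the first pair of groups lay far apart and those of IAb-/- close together.

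Assembly and related factors help to build or join the complexes. In experiments 2 and 3, 3 of their genes had a probe set over the limit on all 6 arrays and 2 had none. Ndufaf1 and Ndufaf4 stayed under the limit with every probe set, as did Ndufa4l2, a paralog found in the smaller table. Sdhaf2, which inserts the flavin into Sdha, read 8959 and 8207 in B6, 8780 and 6516 in CIITA-/- and 6880 and 7337 in IAb-/-. Both IAb-/- values lay under both B6 values. Sdhaf1, which helps load the iron-sulfur subunit, read 6765 on the IAb-/- array of experiment 2 and 10814 to 13136 on the other 5. Cox7a2l, a factor that joins complexes into supercomplexes, read 40535 to 44854 in experiments 2 and 3. The array design of experiment 1 carries another Cox7a2l probe set, which stayed under the limit at -103 to 1833. The same held for Ndufa6 (6784 to 10910, against 1084 to 1593 in experiment 1) and Ndufa10 (4623 to 5793, against 728 to 1078), so these 3 genes have no reading over the limit in experiment 1.

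Differences were tested within the 6-array table, on log2 values floored at the 30th percentile (123.5), with limma across the 9312 probe sets above that floor on at least 2 arrays. Of the 100 members 88 passed this filter. Fold changes on this scale understate the change of dim probe sets. The 3 comparisons share arrays, so their values are not independent of each other.

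The first comparison asks how respiratory chain transcripts differ in cells labelled CIITA-/- from those of B6. Not one of the 88 tested members passed (limma, adjusted p under 0.05; lowest adjusted p = 0.603), where 0.0966% of all probe sets did. At an unadjusted p under 0.05 there were 4 members (4.55%, against 5.86% of all), all of them under the noise limit. With the experiment as a block 0 passed, and 2 at an unadjusted p under 0.05. The median log2 difference over all 100 members was 0, as over all probe sets. Over the 63 members above the noise limit on all 4 arrays the differences ran from -0.32 to 0.34 with a median of 0, and 31 were higher and 32 lower.
Among bright members, the largest differences that kept their sign in all experiments with a value were those of Uqcrq (log2 0.34, SE 0.16, limma adjusted p = 0.91; 0.12 in experiment 1), Ndufa6 (0.30, SE 0.27) and Ndufb2, an accessory subunit with 2 bright probe sets (0.30 and 0.16). Ndufb8 followed at 0.19 (0.24 in experiment 1). Lower values were held by Atp5l with its dimmer probe set (-0.22), Atp5g2 (-0.14) and Ndufb5 (-0.12). Both CIITA-/- arrays were above both B6 arrays in 14 of the 63 (22.2%, against 23.3% of all bright probe sets) and below them in 11 (17.5%, against 18.3%), shares near the background.

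By complex, the median log2 differences over the bright members were 0.01 for complex I (26 probe sets), -0.02 for complex II (4), 0.10 for complex III (7), -0.04 for complex IV (7) and 0 for ATP synthase (16). In experiment 2 alone they were 0.02, -0.03, 0.19, -0.03 and -0.01. In experiment 3 alone they were 0.04, 0.04, 0, -0.08 and 0.01, so the complex III median came from experiment 2. In experiment 1 they were 0.11, -0.01, 0.17, 0.10 and 0.15. There 45 of 56 bright members were higher in CIITA-/- (80.4%, against 51% of all bright probe sets), with a median of 0.12. In experiments 2 and 3 the shares were 52.4% and 50.8%, so the shift of experiment 1 was not seen in the others. Of the macrophage markers over the limit in B6 in experiment 1, Mrc1 (log2 -0.76) and Adgre1 (-0.97) were lower in CIITA-/-. Cd68 (-0.1), Csf1r (-0.04) and Cd14 (0) differed less. The part of these markers in the shift of experiment 1 was not tested. Higher in all 3 experiments were 12 of 56 (21.4%, against 17.6% of all) and lower in all 3 were 3 (5.36%, against 13.1%).

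**Figure D3:**
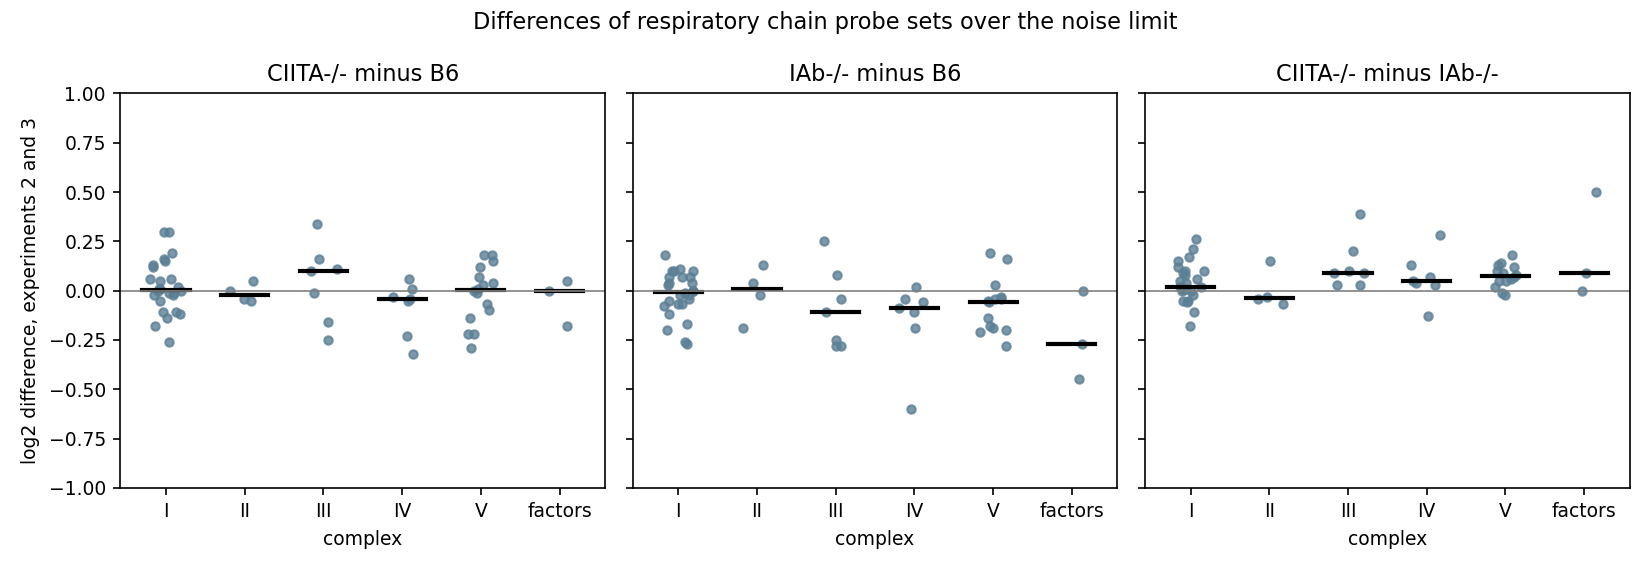
Mean log2 difference over experiments 2 and 3 (vertical axis) of each member over the noise limit on the 4 arrays compared, by complex, with medians as bars; "factors" are assembly factors. All points lie between -0.60 and 0.50, and medians of the 5 complexes between -0.11 and 0.10.

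The next comparison sets cells labelled IAb-/- against B6. No member passed here either (0 of 88, limma adjusted p under 0.05, lowest 0.739), where 0.0107% of all probe sets did. At an unadjusted p under 0.05 there were 2 members (2.27%, against 4.31% of all), both under the noise limit. With the experiment as a block 0 passed, and 1 at an unadjusted p under 0.05. Over the 61 members above the noise limit on all 4 arrays the median log2 difference was -0.04, against 0.01 over all such probe sets, and 41 were lower and 20 higher. Over all 100 members it was -0.03 (0 over all probe sets). Both IAb-/- arrays lay below both B6 arrays in 23 of 61 (37.7%, against 15.2% of all bright probe sets) and above them in 8 (13.1%, against 16.9%).
Among bright members lower in each experiment with a value, the largest differences were those of Uqcr11 (log2 -0.28, SE 0.16, limma adjusted p = 1; -0.29 in experiment 1), Atp5d with 1 probe set (-0.28), Ndufb10 (-0.27, SE 0.14; -0.17), Sdhaf2 (-0.27; -0.08) and Ndufv3, an accessory subunit of complex I (-0.26; -0.06). Higher in each were Atp5d with another probe set (0.19), Ndufb2 (0.10) and Ndufb8 (0.10). Lower in all 3 experiments were 14 of 55 bright members (25.5%, against 13.7% of all), and higher in all 3 were 2 (3.64%, against 13.9%).

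By complex the medians over bright members were -0.01 for I, 0.01 for II, -0.11 for III, -0.09 for IV and -0.06 for ATP synthase. In experiment 1 they were -0.08, -0.14, -0.03, 0.06 and 0.06, so complex II, complex IV and ATP synthase had the other sign there. In experiment 2 alone they were -0.04, -0.08, -0.01, -0.01 and -0.06. In experiment 3 alone they were -0.02, 0.04, -0.11, -0.19 and -0.12. Complex II thus also changed sign between experiments 2 and 3, and complexes III and IV were near 0 in experiment 2. The bright end of the arrays moved as well: over the 631 probe sets above 15000 the median difference from B6 was 0.07 in experiment 2 and -0.06 in experiment 3. The Cre spikes of that table are brightest on the former IAb-/- array and dimmest on the latter. Over the 22 members of that brightness it was 0.02 and -0.11. Between 5000 and 15000 the median over both experiments was 0.01 for all 1389 probe sets and -0.05 for the 32 members. Between 1701 and 5000 it was 0 for all 1672 and -0.20 for the 7 members. With every array of a table given the same distribution of values (quantile normalization), 32.1%, 34.4% and 34.4% of bright members were higher in IAb-/- in experiments 1, 2 and 3. Over all bright probe sets these shares were 49.6%, 48.5% and 47.9%. The summed macrophage markers of experiments 2 and 3 were 17645 to 18697 on IAb-/- arrays and 14504 to 18085 on B6 arrays, with 3 of 9 genes over the limit. On CIITA-/- arrays the sum was 18555 to 18697. These sums take in all 13 macrophage probe sets, also those under the limit or below 0. In experiment 1, Cd68 (log2 -0.44), Csf1r (-0.25), Mrc1 (-1.65) and Adgre1 (-0.7) were lower in IAb-/- than in B6, and Cd14 was higher (0.64). The part of the bright end or of these markers in the members' shift was not tested. In bulk samples fewer cells of a type and less RNA per cell cannot be told apart.

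The last comparison sets CIITA-/- against IAb-/- cells. Of 88 members 0 passed (limma adjusted p under 0.05, lowest 0.823), where 0.0215% of all probe sets did. At an unadjusted p under 0.05 there were 2 (2.27%, against 4.54% of all), both under the noise limit. With the experiment as a block 0 passed, and 2 at an unadjusted p under 0.05. Over the 61 bright members the median was 0.05 (0 over all such probe sets), with 48 higher in CIITA-/- and 13 lower. The dendritic cell markers moved in this comparison too: their sum was 219144 to 221642 on CIITA-/- arrays and 235856 to 241154 on IAb-/- arrays, and 11 of 14 probe sets were lower in CIITA-/-. On B6 arrays the sum was 235332 to 241128, and 12 of 14 were lower in CIITA-/- than in B6. These marker values are from experiments 2 and 3. In experiment 1 most marker probe sets were instead higher in CIITA-/- than in B6, such as Itgax (log2 0.15) and Ccr7 (0.11). Others were lower there, such as Cd86 (-0.04 and -0.03) and Fscn1 (-0.38). Against IAb-/- most stayed lower in experiment 1. The part of the markers in the members' differences was not tested. Over all 100 members the median difference was 0.07. Both CIITA-/- arrays lay above both IAb-/- arrays in 12 of 61 (19.7%, against 11.7% of all) and below them in 2 (3.28%, against 11.9%). Higher in CIITA-/- in all 3 experiments were 17 of 54 bright members (31.5%, against 12% of all), and lower in all 3 were 0 of 54 (against 13.9%).
The members with the largest such differences were Uqcr11 (log2 0.39, SE 0.16, limma adjusted p = 1; 0.97 in experiment 1), Ndufb7, an accessory subunit (0.26; 0.23), Uqcr10, a small subunit of complex III (0.20; 0.18), Atp5e (0.18; 0.14) and Ndufb10 (0.17; 0.39). No member lower in all experiments met the same rule. Over all 9 arrays with the experiment as a block, Uqcr11 was the 1 member of 75 with an unadjusted p under 0.05 (log2 0.58, SE 0.17, limma adjusted p = 0.97).

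All 7 bright probe sets of complex III were higher in CIITA-/- than in IAb-/- (log2 0.03 to 0.39, median 0.09), as were 12 of 14 of ATP synthase (median 0.07), 6 of 7 of complex IV (0.05) and 19 of 26 of complex I (0.02). In complex II it was 1 of 4 (-0.04). These counts use the mean of experiments 2 and 3. For complex IV the median was -0.01 in experiment 2 and 0.16 in experiment 3. In experiment 1 the medians were 0.18 for III, 0.07 for V, 0.08 for IV, 0.18 for I and 0.02 for II. By experiment, the shares of bright members that were higher were 78.9%, 60.7% and 72.1% in experiments 1, 2 and 3, against 46.8%, 49.4% and 49.9% of all bright probe sets. After quantile normalization, which gives every array of a table the same distribution of values, they were 80.7%, 68.9% and 72.1%. The medians were 0.11, 0.03 and 0.08 on the deposited scale. Over all 631 probe sets above 15000 the median was -0.05 in experiment 2 and 0.08 in experiment 3, and over the 22 members among them 0 and 0.09. Between 5000 and 15000, all 1389 probe sets had medians of 0.01 and -0.01, and the 32 members 0.05 and 0.06.

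**Figure D4:**
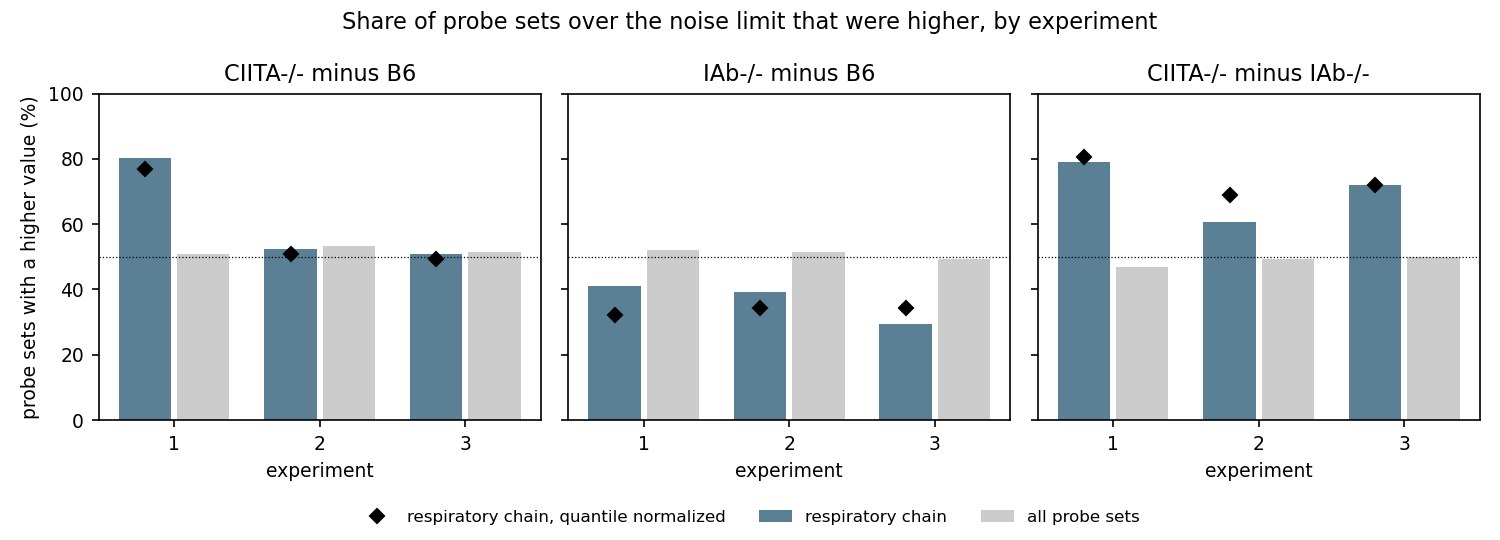
Share of probe sets over the noise limit (percent, vertical axis) with a higher value in the group named first, in each experiment, for members (blue bars), for all probe sets (grey bars) and for members after quantile normalization (diamonds). In CIITA-/- minus IAb-/- the member shares are 78.9%, 60.7% and 72.1%; in CIITA-/- minus B6 experiment 1 stands at 80.4% and the others at 52.4% and 50.8%.

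The precision of these arrays bounds the differences that could be present. For the 61 bright members the 95% confidence interval of the log2 difference (limma) had a median reach of 0.41 to either side in each comparison. The interval stayed between -1 and 1, a change of less than 2-fold either way, for 58 of 61 in each comparison. It stayed between -0.5 and 0.5 for 29 members in CIITA-/- against B6, 27 in IAb-/- against B6 and 31 in CIITA-/- against IAb-/-. Each interval holds for its own probe set and not for all at once. A p that misses the threshold does not show that the groups were the same.

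Other genes of oxidative metabolism were read from fixed lists, and 0 passed in any comparison (limma, adjusted p under 0.05). For the link between complexes III and IV, Cyc1, the cytochrome c1 subunit of complex III, read 23591 and 21251 in B6, 24708 and 29447 in CIITA-/- and 31383 and 23722 in IAb-/- with its brighter probe set. Both mutant groups lay above B6 there, but IAb-/- did not in experiment 1 (19165 against 19328). The other Cyc1 probe set read 6192 and 6128 in B6, 5055 and 9288 in CIITA-/- and 6798 and 6767 in IAb-/-. By that probe set IAb-/- lay above B6, and the CIITA-/- arrays stood on either side of it. Cytochrome c itself, Cycs, read 1518 to 2788 and overlapped between all groups. The carriers that exchange ADP and ATP across the inner membrane were bright, with Slc25a4 at 34422 to 37655 and Slc25a5 at 18855 to 27821 with its brightest probe set. The carrier list had median log2 differences of -0.02 against B6 in both mutant groups. Among assembly genes outside the rule, Surf1, needed to build complex IV, read 4402 and 4158 in B6, 3163 and 3449 in CIITA-/- and 4284 and 3185 in IAb-/-. The CIITA-/- values lay below B6 (log2 -0.37, limma adjusted p = 0.93), but above it in experiment 1 (0.14). Of 8 regulator genes 1, Esrra, a nuclear receptor that activates mitochondrial genes, was over the limit on all 6 arrays (3196 to 3898, by 1 of its probe sets). Ppargc1a, its coactivator, was under the limit at -165 to 171, and so was Tfam, which maintains mitochondrial DNA, at 38 to 109.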

How the data were processed

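The 9 arrays of 3 groups are in 2 tables of intensity values, 1 per probe set and array. As the deposited values show, the authors' intensities are linear, background-subtracted and scaled to one trimmed mean per table; the algorithm and its version are not given in the sources used here. Gene names come from the platform annotation.

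Values under the 30th percentile of a table (123.5 and 93.2) were set to it and log2 was taken. One model with all 3 groups (lmFit and eBayes, limma 3.58.1, R 4.3.3; 3 residual degrees of freedom) was fitted to the 6-array table, with Benjamini-Hochberg adjustment over 9312 probe sets. It was tested on simulated data. Experiment 1 gives differences within its own table. Experiment numbers come from the titles; deviations of same-numbered arrays correlated between groups at 0.05 (CIITA-/- and B6), 0.08 (IAb-/- and B6) and 0.21 (CIITA-/- and IAb-/-) over all tested probe sets, and at -0.33, -0.08 and 0.46 over the members above the noise limit. The noise limit stands in for a detection call. Medians by group of genes use all members, without the filter, or those over the noise limit, as stated.

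Genes named are core subunits, isoform pairs, genes with several probe sets, members under the limit, and up to 5 members per direction and comparison with the largest difference of one sign in every experiment. Members and lists were chosen with earlier results of these data known. Alternatives were the floor, the scaling, the filter, the block, single arrays left out and 1 probe set per gene. The number of arrays limits the precision.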

Additional observations from a re-analysis of the deposited data

How the results depend on the processing

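The count of members passing the limma threshold stayed at 0 in all 3 comparisons under every alternative run: another floor, quantile or 75th percentile scaling, no filter, each array left out, the brightest probe set per gene, the experiment as a replicate block in the 6-array fit and all 9 arrays with the block. At an unadjusted p under 0.05 the block left 2, 1 and 2 members. The median log2 difference of all members is close to 0 and its size follows the choices. For IAb-/- minus B6 (-0.025) it was 0 with the floor at the noise limit, -0.04 with the lower floor, -0.041 with the brightest probe set per gene and -0.041 over members above the noise limit. With single arrays left out it ran from -0.061 (without IAb-/- replicate 2) to 0 (without IAb-/- replicate 3, and without B6 replicate 2). For CIITA-/- minus IAb-/- (0.07) it was 0.007 with the floor at the noise limit, and 0.02 (without IAb-/- replicate 3) to 0.091 (without CIITA-/- replicate 3) with single arrays left out. For CIITA-/- minus B6 (0.004) it ran from 0 to 0.028. Setting values to the noise limit makes the dim members exactly equal, which pulls a median to 0. Quantile normalization kept the sign of all 21 differences named by size. Its per-experiment counts were added after the data were seen. Signal over background limits the members under the noise limit, 34 of 100.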

Other observations

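The enzymes that feed the chain and those that clear its by-products were read from the same fixed lists. Of 16 genes of pyruvate oxidation and the tricarboxylic acid cycle 12 had a probe set over the noise limit on all 6 arrays, and 0 passed in any comparison (limma). Citrate synthase (Cs), often used as a gauge of mitochondrial content, read 14438 and 14580 in B6, 14293 and 14119 in CIITA-/- and 15086 and 14420 in IAb-/-. CIITA-/- lay below B6 by a log2 difference of 0.03, and IAb-/- overlapped with B6. Mdh2, the malate dehydrogenase of the cycle, read 32269 and 31222, 32641 and 34694, and 29134 and 31462 in the same order of groups. The median log2 difference of the list was 0 in each comparison.

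All 6 measured genes of superoxide and peroxide defence were over the noise limit on all 6 arrays. Sod2, the superoxide dismutase of the mitochondrial matrix, read 2880 and 2604 in B6, 2809 and 3381 in CIITA-/- and 2455 and 2853 in IAb-/-, so the groups overlapped. In experiment 1 its values were 2527, 3718 and 1782. Txn2, the mitochondrial thioredoxin, read 6852 and 6481 in B6 and was above that on all 4 mutant arrays, at 8319 and 8319 in CIITA-/- and 9310 and 7670 in IAb-/- (log2 0.32 and 0.34, limma adjusted p = 0.93 and 1). In experiment 1 CIITA-/- was below B6, at 8685 against 9260, and IAb-/- above, at 10076.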
